A study of Mus musculus with 24 samples.

Results

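The genes described here encode the subunits of the mitochondrial oxidative phosphorylation system. They were taken by symbol from the annotation of both array types of the study: every probe set annotated to a single gene whose symbol begins with Nduf, Sdh (Sdha to Sdhd), Uqcr, Cox4 to Cox8 or Atp5, together with Cycs and Cyc1. The rule gave 184 probe sets for 92 genes, of 45137 probe sets in all, which cover 18193 genes named singly. Of these probe sets 160 were on the 430A array and 24 on the 430B array. By complex, the 92 genes comprised 34 of complex I, 4 of complex II, 9 of complex III including Cyc1, 17 of complex IV and 17 of complex V. The symbols also brought in cytochrome c (Cycs), 8 assembly factors of complex I that carry the Ndufaf prefix, and Ndufa4 with its paralogue Ndufa4l2, which are named after complex I although NDUFA4 protein is now placed with complex IV.

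Whole colon from BALB/c mice of 6 to 8 weeks was profiled on Affymetrix MOE430 arrays, and no group carried a genetic alteration according to the labels. Mice ate standard chow or chow with 2% curcumin, a plant polyphenol, from 2 days ahead of an enema, and tissue was collected on day 7. The enema was a control solution or TNBS (trinitrobenzene sulfonic acid), which binds to proteins of the gut wall and provokes colitis. Crossing diet and enema gave 4 groups, called here standard-control, standard-TNBS, curcumin-control and curcumin-TNBS, with 3 samples each and 1 array of each type per sample. RNA was pooled from 3 mice per group. Whether a group's 3 samples were pooled separately is not in the labels, so the p-values measure the spread between these samples, which may be technical.

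Oxidative phosphorylation moves electrons from NADH through complex I, or from succinate through complex II, to ubiquinone, then through complex III and cytochrome c to complex IV, which reduces oxygen. Complexes I, III and IV pump protons, and complex V, the ATP synthase, uses the proton gradient to make ATP. Colonocytes depend on this system because they burn the butyrate made by gut bacteria. Most subunits are encoded in the nucleus, and many of their promoters hold sites for nuclear respiratory factor 1 (NRF-1) and for the ETS-family factor GABP (also called NRF-2), which is why these genes are often read as a group.

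The promoter windows show short cores of these sites in letters for a minority of the genes. RefSeq windows of the 250 bases before the start (GRCm38.p6) were at hand for 75 of the 92 genes, in 80 windows. The NRF-1 core searched was GCATGCGC, or GCGCATGC on the other strand. It was in the windows of 9 of the 75 genes (12% of them, against 2.53% of 26950 other genes). The ETS core searched was CCGGAAG, or CTTCCGG on the other strand, and was present for 14 genes (18.7%, against 7.80% of other genes). Of the 75 genes 2 held both cores and 54 held neither. By windows, the NRF-1 core was in 11.3% of member windows and 2.23% of the 32771 other windows, and the ETS core in 17.5% and 6.88%. Windows of 3 genes with the NRF-1 core are shown, 1 for an electron carrier, 1 for a complex II subunit and 1 for a complex V subunit whose probe sets disagree. Capitals mark the match, and where both strands match the capitals cover the overlapping run of GCGCATGCGC.
Cycs (chr6:50566570-50566819, minus strand): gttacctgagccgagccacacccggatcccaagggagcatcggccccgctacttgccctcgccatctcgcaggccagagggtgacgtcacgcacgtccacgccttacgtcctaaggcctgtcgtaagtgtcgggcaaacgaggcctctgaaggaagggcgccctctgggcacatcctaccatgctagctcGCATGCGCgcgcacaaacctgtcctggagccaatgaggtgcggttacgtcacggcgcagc
Sdhb (chr4:140961021-140961270, plus strand): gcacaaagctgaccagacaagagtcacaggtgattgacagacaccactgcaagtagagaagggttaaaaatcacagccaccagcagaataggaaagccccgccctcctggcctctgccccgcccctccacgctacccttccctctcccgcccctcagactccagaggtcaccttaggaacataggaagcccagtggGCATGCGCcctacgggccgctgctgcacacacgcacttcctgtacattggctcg
Atp5k (chr5:108434400-108434649, minus strand): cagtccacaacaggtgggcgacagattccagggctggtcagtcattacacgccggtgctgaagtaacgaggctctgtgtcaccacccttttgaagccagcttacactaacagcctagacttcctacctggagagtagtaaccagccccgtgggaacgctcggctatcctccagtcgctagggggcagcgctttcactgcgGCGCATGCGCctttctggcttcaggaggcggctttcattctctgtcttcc
The match is a description of these letters and was not tested as a site. In the diet comparison with control enema the median log2 difference was 0.14 for the 9 genes with the NRF-1 core (7 above 0), 0.12 for the 14 with the ETS core (13 above 0) and 0.13 for 49 genes with neither (39 above 0). In the diet comparison with TNBS these medians were 0.03 (5 above 0), 0.11 (10) and 0.08 (35), and in the diet by enema interaction -0.13 (2), 0.00 (7) and -0.07 (23). Whether genes with and without the cores differ was not tested.

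The arrays showed a colon with its epithelium and muscle wall. All 14 epithelial markers on the list used here and 8 of 9 smooth muscle markers were above the filter on low signal, while 4 of 14 striated muscle markers were. On the 430A arrays the first principal component of genes outside the set held 31.9% of the variance. Its sign was used to divide the samples into 2 sets of 6, which cut across the groups. Whether a gap separates the sets was not tested. Standard-control and curcumin-TNBS each had 1 sample in the first set, and standard-TNBS and curcumin-control each had 2. Replicates 2 and 3 of curcumin-TNBS stood apart on 430B. Markers of pancreatic acinar cells varied within groups, with a summed signal from 651 to 98365 in standard-control, 40397 to 103340 in standard-TNBS, 678 to 47377 in curcumin-control and 801 to 79100 in curcumin-TNBS. All 7 tested acinar markers were above 0 in both TNBS comparisons (medians of 1.94 and 1.51) and below 0 in both diet comparisons (-2.56 and -2.87). With limma 0 of the 7 passed in any comparison, and 0 had an unadjusted p under 0.05. The part of these cells in the subunit values was not tested. Neutrophil genes S100a8 and S100a9 marked the enema on the standard diet. S100a8 signal was 2458, 1431 and 2989 in standard-TNBS and between 12.3 and 212 in the other 9 samples, but its mean over all arrays was under the filter, so it was not tested.

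Of the 184 probe sets, 160 for 87 genes passed the filter on low signal (145 on 430A and 15 on 430B) and 24 did not. The 5 genes with no tested probe set were Ndufb1, Cox6b2, Cox7b2, Cox7c and Cox8b. For Cox8b, the heart and skeletal muscle isoform of a complex IV subunit, the signal was between 25.6 and 110 in all 12 samples. For counts over genes, each gene was given by 1 probe set, the tested one with the highest mean on 430A, or on 430B where no 430A probe set was tested, and 82 genes came from 430A and 5 from 430B. Signals of these 87 genes were steady across the series: in 69 of them the highest of the 12 samples was less than 2 times the lowest, and the median of that ratio was 1.57. Atp5b, the catalytic beta subunit of the ATP synthase, lay between 6790 and 8379, and Atp5g3, a c-ring subunit gene, between 11199 and 13742. On 430A the standard error of a difference had a median of 0.157 for member probe sets and of 0.198 for all probe sets tested there. A transcript level in whole colon cannot tell fewer cells of a type from less RNA per cell.

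The level of each complex in a sample was taken as the mean over its genes of log2 signal minus the probe set's own mean over the 12 arrays. For all 87 genes this level was -0.0032, -0.012 and -0.093 in standard-control, -0.15, 0.027 and -0.010 in standard-TNBS, 0.0024, 0.13 and 0.047 in curcumin-control, and 0.11, 0.012 and -0.051 in curcumin-TNBS. The lowest sample was standard-TNBS replicate 1 and the highest curcumin-control replicate 2. Complex I had its lowest value there too, at -0.22, against 0.047 and -0.024 in the other samples of that group. Complex II varied most between samples, from -0.42 in standard-TNBS replicate 1 to 0.33 in curcumin-TNBS replicate 1. The first set of 430A arrays was higher than the second by 0.10 for all members, by 0.25 for complexes II and III, by 0.13 for complex I, by 0.11 for complex V and by 0.02 for complex IV, while the pooled standard deviation of all members within groups was 0.07. The difference between array sets was thus as large as the diet differences given below, whose values within each set stand beside them. Within a set, every comparison of 2 groups has a single array in 1 of them.

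**Figure D1:**
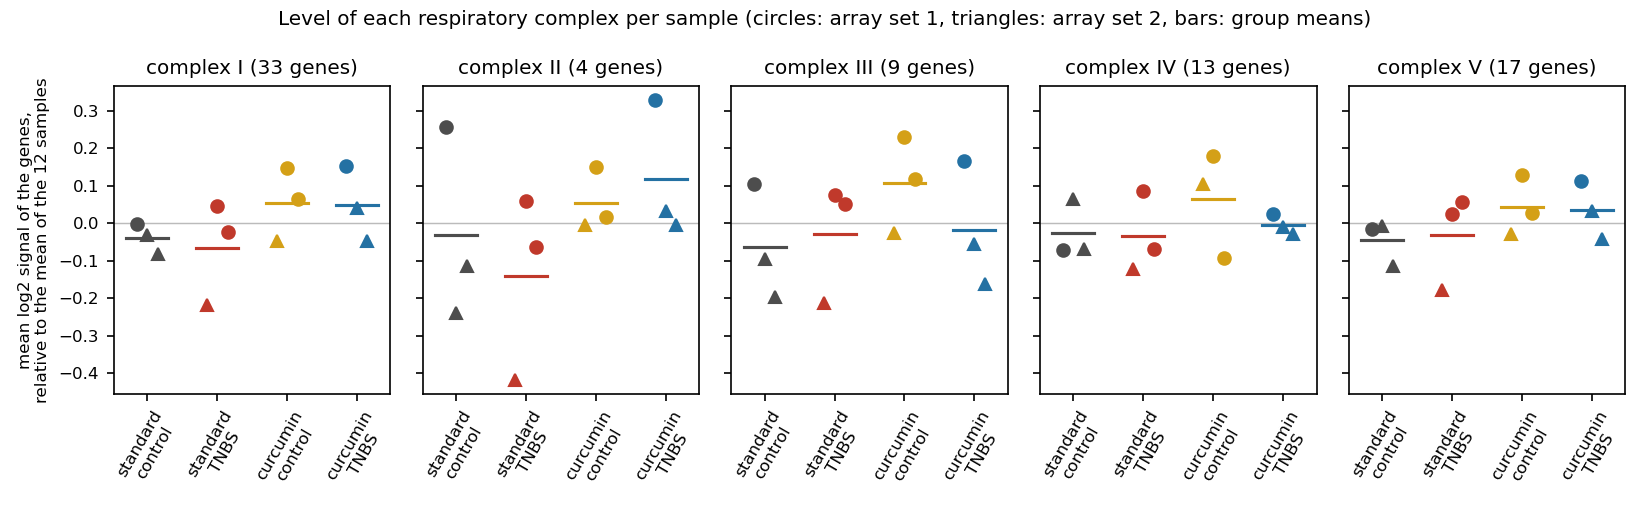
Level of each complex in the 12 samples: the y axis is the mean over its genes of log2 signal minus the probe set's mean over all arrays, and each point is a sample. Circles and triangles mark the 2 array sets, bars the group means, and standard-TNBS replicate 1 is the lowest sample for each of the 5 complexes.

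The first comparison asked whether TNBS changed the subunit genes on the standard diet. No member passed: with limma and Benjamini-Hochberg adjustment 0 of 160 probe sets had an adjusted p under 0.05, where 0.00739% of all 27081 probe sets tested did. At an unadjusted p under 0.05, 3 were higher and 3 lower, where 3.31% and 3.96% of all probe sets were. The median gene differed by -0.01 on the log2 scale, and 41 of 87 genes (47.1%) were above 0, as were 48.1% of all 12911 genes tested. The 95% interval lay inside a 2-fold difference in either direction for 82 of the 87 genes. This holds for the probe set that stands for each gene, and other probe sets, such as 1 of Atp5k described below, reach past it.

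Among the complexes, the median difference of TNBS on the standard diet was -0.05 for complex I (11 of 33 genes above 0), -0.04 for complex II (0 of 4), -0.01 for complex III (4 of 9), 0.05 for complex IV (11 of 13) and 0.06 for complex V (9 of 17). The values for complexes IV and V changed sign with the scaling, to -0.02 and -0.03 under quantile normalization. Complex II was below 0 for all 4 genes under each of the scalings tried, and within both array sets, with medians of -0.31 and -0.16. The first set has standard-control replicate 1 alone (complex II level 0.26), and the second standard-TNBS replicate 1 alone (-0.42). Replicates 2 and 3 were at -0.24 and -0.11 in standard-control and at 0.06 and -0.06 in standard-TNBS. Sdha, the flavoprotein that oxidises succinate, had a signal of 4569, 3404 and 3145 in standard-control and of 2139, 3713 and 3230 in standard-TNBS. The groups overlapped, and the difference was -0.31 with a standard error of 0.20 (limma adjusted p = 0.711).

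Isoforms that belong to muscle or lung were set beside their ubiquitous counterparts in complex IV. Cox7a1, the heart and skeletal muscle form of subunit 7a that is also present in brown fat, had a signal of 350, 785 and 567 in standard-control and of 406, 308 and 266 in standard-TNBS. It was the complex IV gene with the lowest difference in this comparison, although the samples overlapped (-0.72, standard error 0.30, limma adjusted p = 0.484). Cox7a2, its ubiquitous counterpart, differed by 0.00 with an interval from -0.22 to 0.23. Cox6a2, a striated muscle isoform, differed by -0.43 and its counterpart Cox6a1 by 0.05. Cox4i2, the lung isoform, differed by 0.19 and Cox4i1 by 0.04. None of these passed, and the 4 counterparts Cox4i1, Cox6a1, Cox7a2 and Cox8a stayed between 0.00 and 0.05.

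Fat markers moved the same way as Cox7a1. The 5 tested adipocyte markers on the list had a median of -0.72 in the same comparison, with 0 of 5 above 0. Adipoq, the adipocyte hormone adiponectin, had 3292, 2369 and 2378 in standard-control and 666, 2145 and 1480 in standard-TNBS. The summed signal of the list ranged from 14461 to 15140 in standard-control and from 5130 to 13332 in standard-TNBS. The brown fat marker Ucp1 was near the bottom of the scale, between 4.7 and 50.4 in all samples. The part of fat in the values of Cox7a1 was not tested. Leukocyte markers went the other way, with a median of 0.32 over 6 tested genes and a summed signal of 11408 to 16368 in standard-TNBS against 6790 to 7840 in standard-control.

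Atp5k of complex V had the widest gap between probe sets of a gene in this comparison and in that of the diets after TNBS. Atp5k, which encodes subunit e of the membrane part of the ATP synthase, is measured by 3 tested probe sets. The second brightest gave 3383, 3677 and 3139 in standard-control, 5726, 8228 and 7020 in standard-TNBS, 5983, 3547 and 2937 in curcumin-control, and 4629, 3149 and 2549 in curcumin-TNBS. All 3 standard-TNBS samples were above every standard-control and every curcumin-TNBS sample. The difference of TNBS on the standard diet was 1.02 with a standard error of 0.26 (limma adjusted p = 0.172). The other probe sets did not share it: the brightest differed by 0.30 and the dimmest by -0.04. The probe set was chosen after its values were seen, and it did not represent the gene in the counts.

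**Figure D2:**
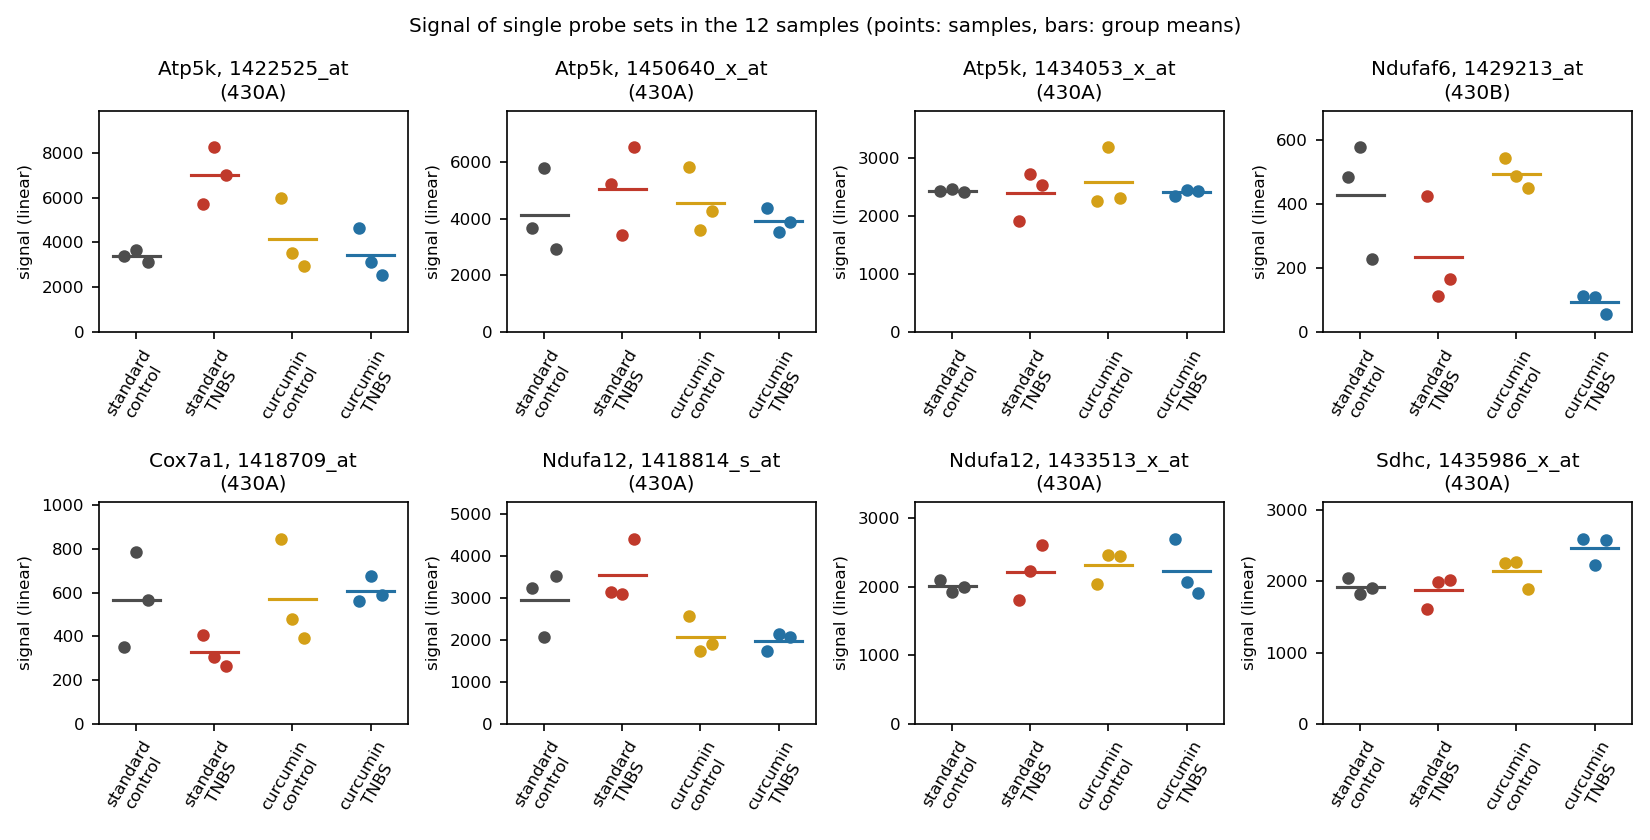
Signal on a linear scale of 8 probe sets in the 12 samples, with a point per sample and a bar at each group mean. For Atp5k and Ndufa12 probe sets of the same gene are side by side: 1 of the 3 Atp5k probe sets has higher standard-TNBS points, and 1 of the 2 Ndufa12 probe sets drawn has lower curcumin points.

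Agreement between probe sets was limited across the members. Of the 47 genes with more than 1 tested probe set, all probe sets had the same sign in 28 genes for TNBS on the standard diet, in 19 for TNBS on curcumin, in 27 for curcumin with control enema and in 23 for curcumin with TNBS. The median gap between the highest and lowest probe set of a gene was between 0.16 and 0.23 over these comparisons. This is larger than the median differences of the 87 genes, which lay between -0.05 and 0.12.

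Assembly factors of complex I were at the edges of this comparison. Ndufaf5, which modifies a core subunit during assembly, had 218, 215 and 188 in standard-control and 268, 291 and 314 in standard-TNBS. These groups did not overlap, and the difference was 0.46 with a standard error of 0.19 (limma adjusted p = 0.484). Ndufaf2 differed by 0.32 and Ndufaf6 by -0.93, with adjusted p of 0.999 and 0.953.

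The second comparison was TNBS against control enema in mice on curcumin. Here 1 of 160 probe sets passed, lower after TNBS, and 0 were higher, where 0.203% of all probe sets passed in either direction. At an unadjusted p under 0.05, 3 members were higher and 2 lower, against 6.16% and 7.17% of all probe sets. The median gene differed by -0.05 and 31 of 87 (35.6%) were above 0, against 47.8% of all genes tested. The interval lay inside a 2-fold difference for 84 of 87 genes. Medians were -0.03 for complex I (12 of 33 above 0), 0.07 for complex II (3 of 4), -0.14 for complex III (2 of 9), -0.11 for complex IV (2 of 13) and -0.02 for complex V (5 of 17). Complexes III and IV were below 0 under each of the scalings tried, at most to -0.03 and -0.05 with a term for the array sets, while those of complexes I and V changed sign with that term (0.03 and 0.04).

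The member that passed was Ndufaf6, an assembly factor needed early in the building of complex I, measured on 430B. Its signal was 545, 486 and 451 in curcumin-control and 113, 110 and 56 in curcumin-TNBS, with 484, 576 and 228 in standard-control and 425, 112 and 167 in standard-TNBS. All 3 curcumin-TNBS samples were below all curcumin-control samples. The difference was -2.27 with a standard error of 0.46 (limma adjusted p = 0.0485), just inside the threshold. Replicates 2 and 3 of curcumin-TNBS are the 430B arrays that stood apart, and without them the difference was -1.97 with an adjusted p of 0.797. The call was also lost with a pseudocount of 1, and leaving out each sample in turn kept it only without standard-TNBS replicate 1 or curcumin-TNBS replicate 1. Of the other Ndufaf genes 0 passed.

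Cox8c, a testis-type isoform of a complex IV subunit, came closest after it. Its 430B probe set had 1026, 888 and 620 in curcumin-control and 1712, 1714 and 2374 in curcumin-TNBS (1.19, standard error 0.25, limma adjusted p = 0.0532). In the standard groups the same probe set went from 1246, 892 and 716 to 1252, 1643 and 2175 (0.82, adjusted p = 0.691). In neither diet did the groups overlap. The 430A probe set of Cox8c differed by -0.16 on curcumin and by 0.04 on the standard diet, so the 2 array types gave different accounts of this gene. Cox8c was chosen after its values were seen, and without the 430B arrays that stood apart its difference on curcumin was 1.04 (adjusted p = 0.893).

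Among larger differences, Atp5md, a small subunit of the membrane part of complex V, had 1052, 709 and 776 in curcumin-control and 1048, 1444 and 1255 in curcumin-TNBS. The groups overlapped by 1 sample, and the difference was 0.56 with a standard error of 0.19 (limma adjusted p = 1). Ndufa4l2, the hypoxia-responsive paralogue of Ndufa4, differed by 0.71 with an interval from -0.19 to 1.60. At the lower edge, Uqcr10 of complex III differed by -0.22 with an interval from -0.63 to 0.20. Neither passed, and the intervals hold 0.

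The third comparison was curcumin against the standard diet in mice with control enema. Most subunit genes lay slightly above 0 here: 70 of 87 (80.5%), against 49.9% of all genes tested, with a median of 0.12 on the log2 scale and quartiles of 0.03 and 0.19. With limma 0 of 160 probe sets passed, where 0.00369% of all did, and at an unadjusted p under 0.05, 2 were higher and 1 lower, against 1.52% and 2.09% of all probe sets. The interval lay inside a 2-fold difference for 85 genes and inside a 1.5-fold difference for 59. Because the genes share the same 6 arrays they are not independent, and the count is a description and not a test. The lowest curcumin-control level of the 87 genes (0.0024) was just above the highest standard-control level (-0.0032).

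The shift was spread over the complexes. The median was 0.12 for complex I (27 of 33 genes above 0), 0.09 for complex II (3 of 4), 0.18 for complex III (9 of 9), 0.10 for complex IV (11 of 13) and 0.13 for complex V (13 of 17). The 6 tested core subunits of complex I, which carry its flavin and iron-sulphur centres, were all above 0 with a median of 0.14, and the 27 accessory subunits had 0.11. For complex III the signals of Cyc1, the haem subunit that hands electrons to cytochrome c, were 5759, 4888 and 4505 in standard-control and 5385, 6186 and 5698 in curcumin-control. These overlapped, with a difference of 0.19 and an interval from -0.07 to 0.46. Uqcrfs1, the Rieske iron-sulphur subunit, differed by 0.20 and Uqcrc1, a core subunit, by 0.08. In complex IV the ubiquitous isoforms Cox4i1, Cox6a1, Cox7a2 and Cox8a differed by 0.16, 0.10, 0.10 and 0.17, and the muscle or lung forms Cox4i2, Cox6a2 and Cox7a1 by -0.15, -0.20 and 0.01. In complex V the 3 c-ring genes Atp5g1, Atp5g2 and Atp5g3 differed by 0.26, 0.14 and 0.12, while Atp5b differed by -0.04 with an interval from -0.24 to 0.17.

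The array sets moved with this shift, and their part in it was not tested beyond the values that follow. With a term for the sets on 430A the median of the 87 genes was 0.07 and 64 were above 0, and complex II then had a median of -0.00 with 2 of 4 above 0. Within the first set of arrays the median was 0.09 (60 of 82 genes above 0, with other genes at -0.02), and within the second 0.04 (49 of 82, with other genes at 0.03). Complexes I and V were at -0.01 within the second set, and complex II was at -0.18 within the first. Over the other settings the median of the 87 genes ran from 0.07 to 0.17, and from 0.06 to 0.17 when each sample was left out in turn, with 63 to 70 genes above 0. Centring each array on its median raised the count to 76. Such centring shifts every gene of an array type by the same amount, member or not, and the share of other genes above 0 under it was not counted.

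Other measured genes moved with this shift. Epithelial markers had a median of 0.18 in the same comparison with 12 of 14 above 0, and a summed signal of 91693 to 103315 in standard-control and 101334 to 119141 in curcumin-control. The lowest signal of any of the 14 in any sample was 1148, for Cdx1. Acinar markers went the other way, with a median of -2.56 and 0 of 7 above 0. The part of either cell type in the subunit values was not tested. Mitochondrial ribosomal protein genes, which are needed to make the subunits encoded in the mitochondrion, were above 0 in 60 of 76 with a median of 0.09.

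The genes with the highest differences here were Ndufs8, an iron-sulphur core subunit of complex I, and Ndufa4. Ndufa4 had 3312, 3022 and 2780 in standard-control and 3285, 4199 and 4149 in curcumin-control, which overlapped by 1 sample (0.35, standard error 0.14, limma adjusted p = 0.998). Ndufs8 differed by 0.35 by its brightest probe set with an interval from -0.07 to 0.76, and its 5 other probe sets differed by -0.22 to 0.15. The lowest were Ndufa12, an accessory subunit of the matrix arm, at -0.49 by its brightest probe set, and Ndufa4l2 at -0.45 (adjusted p of 0.998 and 0.997). The other tested probe sets of Ndufa12 were at 0.20 and 0.28. Cycs, the electron carrier, differed by -0.21 by its brightest probe set, with an interval from -0.67 to 0.25.

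**Figure D3:**
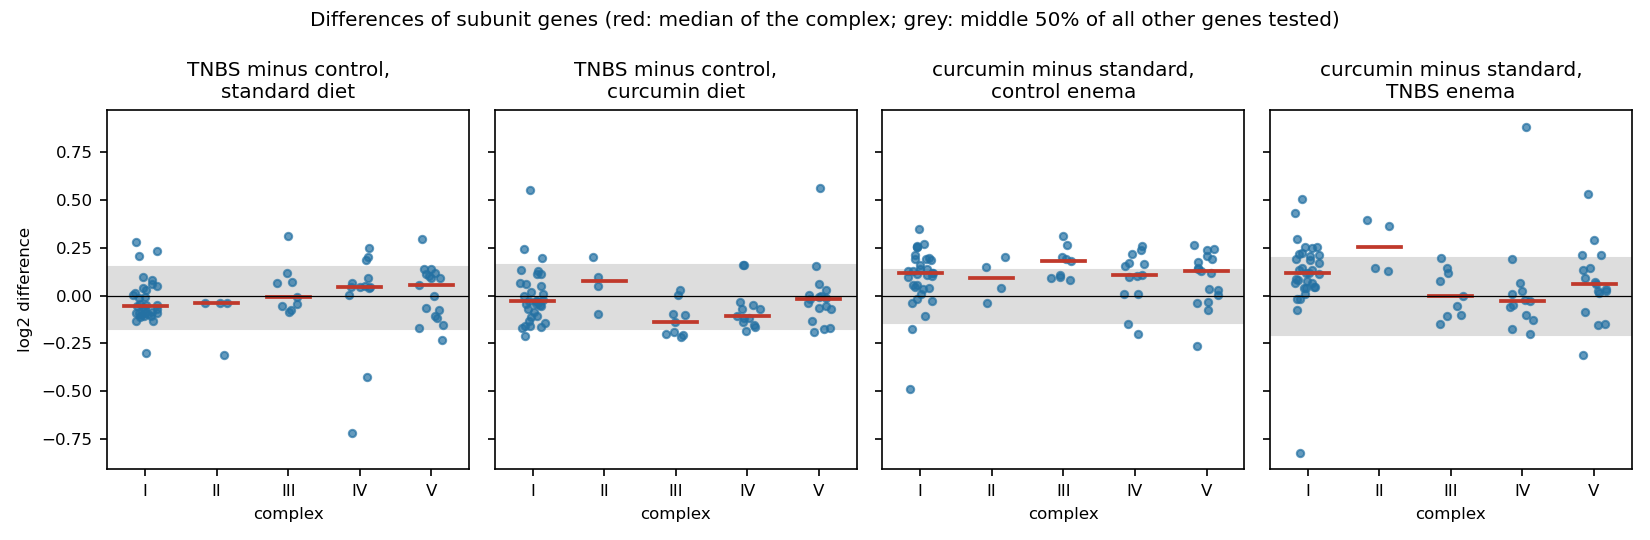
Log2 difference of each subunit gene in the 4 single-factor comparisons, by complex, with a red bar at the complex's median and a grey band over the middle 50% of all other genes tested. Most points are within 0.5 of 0, and those of curcumin against standard diet with control enema are mostly above 0.

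The fourth comparison was curcumin against the standard diet in mice given TNBS. No member passed with limma, 0 of 160, where 0.805% of all probe sets did. At an unadjusted p under 0.05, 10 were higher and 4 lower, which is 6.25% and 2.5% of the members beside 7.96% and 8.91% of all probe sets. The median gene differed by 0.07 and 59 of 87 (67.8%) were above 0, against 49.6% of all genes tested. This value rested on standard-TNBS replicate 1, the sample with the lowest subunit levels: without it the median was -0.03 and 39 genes were above 0. Without curcumin-TNBS replicate 1 the median was -0.01. The interval lay inside a 2-fold difference for 83 genes. With array weights, which gave replicate 2 of curcumin-TNBS a weight of 6.99 on 430A, 13 members (8.12%) passed where 17.6% of all probe sets did, among them Cox7a1 at 1.10, Atp5md at 0.77 and Ndufa12 at -0.83 (limma adjusted p of 0.0107, 0.00895 and 0.0166).

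The medians of the complexes lay apart in this comparison, by an amount that depended on the scaling. Complex I was at 0.12 with 29 of 33 genes above 0, complex II at 0.26 with 4 of 4, and complex V at 0.06 with 13 of 17. Complexes III and IV were at 0.00 (4 of 9) and -0.03 (5 of 13). Both became positive under quantile normalization, at 0.13 and 0.11, where complexes I and V were at 0.14 and 0.10. Within the array sets complex II was at 0.34 and 0.43 and complex I at 0.15 and 0.23, where other genes were at -0.06 and 0.03. In the first set curcumin-TNBS is replicate 1 alone, and in the second standard-TNBS is replicate 1 alone. Those arrays are the highest and the lowest sample of the series for both complexes. Accessory subunits of complex I were at 0.14 (25 of 27 above 0) and its core subunits at 0.02 (4 of 6). The difference between complexes was not tested.

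Sdhc, which anchors complex II in the inner membrane and helps bind ubiquinone, carried the clearest difference of that complex. Its brightest probe set had 1614, 1991 and 2021 in standard-TNBS and 2593, 2222 and 2579 in curcumin-TNBS. The groups did not overlap, and the difference was 0.40 with a standard error of 0.13 (limma adjusted p = 0.294). The second Sdhc probe set differed by 0.13 with an interval from -0.26 to 0.52. Sdha differed by 0.37, Sdhb, the iron-sulphur subunit, by 0.14 and Sdhd, the other membrane anchor, by 0.13, and the intervals of all 3 hold 0.

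In complex I, Ndufa12 was lower by 1 probe set. The brightest probe set had 3134, 3091 and 4408 in standard-TNBS and 1740, 2134 and 2059 in curcumin-TNBS, with 3250, 2078 and 3534 in standard-control and 2562, 1745 and 1913 in curcumin-control. Curcumin-TNBS was below standard-TNBS in every sample (-0.82, standard error 0.21, limma adjusted p = 0.186). The other tested probe sets of the gene differed by 0.01 and -0.10. Ndufab1, the mitochondrial acyl carrier protein that also sits in complex I, went the other way, with 1656, 1568 and 1598 in standard-TNBS and 2330, 2275 and 1942 in curcumin-TNBS by its brightest probe set. These groups did not overlap (0.43, standard error 0.11, limma adjusted p = 0.186), and the gene's other tested probe set differed by -0.09. Ndufab1 was chosen after its values were seen.

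In complex IV, Cox7a1 had 406, 308 and 266 in standard-TNBS and 562, 675 and 590 in curcumin-TNBS. The groups did not overlap, and the difference was 0.88 with a standard error of 0.30 (limma adjusted p = 0.325). Within the array sets it was 0.93 and 0.62. Adipocyte markers had a median of 0.60 with 5 of 5 above 0 in the same comparison, and a summed signal of 10778 to 15370 in curcumin-TNBS, and their part in the value of Cox7a1 was not tested. Cox7a2 differed by -0.03 with an interval from -0.26 to 0.20. Cox6c, another complex IV subunit, gave 0.82 by its dimmer probe set (adjusted p = 0.293) and 0.01 by the brighter, and was chosen after its values were seen.

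In complex V the second brightest Atp5k probe set differed by -1.05 with a standard error of 0.26 (adjusted p = 0.167), while the other Atp5k probe sets differed by -0.31 and 0.03. Atp5md had 1000, 807 and 765 in standard-TNBS and 1048, 1444 and 1255 in curcumin-TNBS, with no overlap (0.53, standard error 0.19, limma adjusted p = 0.345). Within the array sets Atp5md was at 0.41 and 0.42. Atp5a1 and Atp5b, the alpha and beta subunits of the catalytic head, differed by -0.15 and 0.02, and the interval of Atp5b ran from -0.18 to 0.23. The assembly factor Ndufaf6 was lower by -1.05 (adjusted p = 0.183), and without the 430B arrays that stood apart by -0.75.

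**Figure D4:**
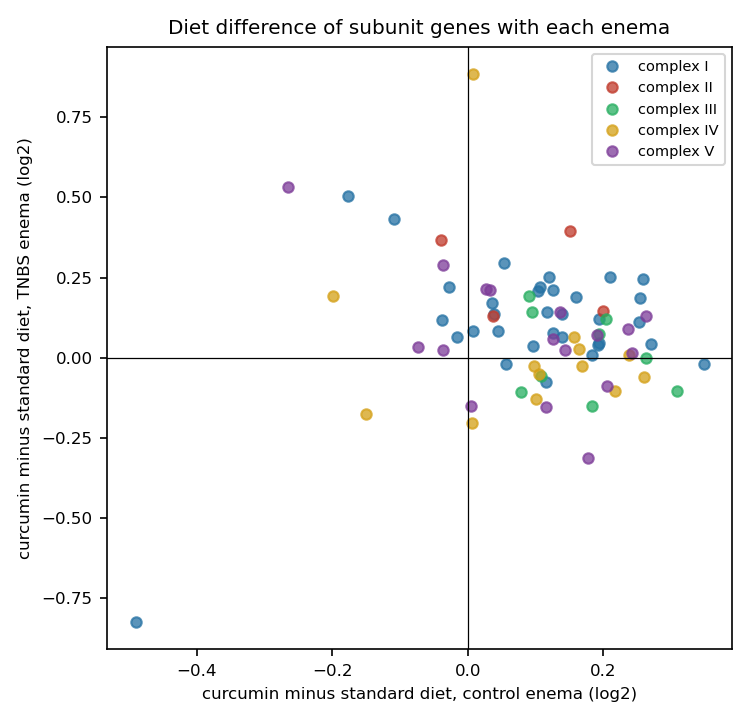
Curcumin minus standard diet on the log2 scale for each subunit gene, with control enema on the x axis and with TNBS enema on the y axis, coloured by complex. The axes share no arrays, and the points gather at small positive values on both without lining up on a diagonal.

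The diet differences with control enema and with TNBS come from different arrays, so they can be set side by side. Of the 87 genes 47 (54.0%) were above 0 with both enemas, against 19.4% of the 12824 other genes, and 5 were below 0 with both. For the 87 genes this is about what the separate shares above 0, 80.5% and 67.8%, give by themselves. The second of those shares rested on standard-TNBS replicate 1. The size of a gene's difference with control enema did not track its size with TNBS: Pearson's r was -0.08 over the 87 genes and -0.12 over the other genes, and genes are not independent replicates. Both values are descriptions, and both share the array sets described above. The 2 comparisons of TNBS, which also share no arrays, had r of 0.32 over the same genes and of -0.16 over the other genes. Of the 87 genes 9 were above 0 and 24 below 0 in both, and of the other genes 2297 and 2807. The same sign was thus seen in 33 of the 87 genes (37.9%), against 39.8% of the other genes. Ndufaf6 was the lowest gene in both comparisons, at -0.93 and -2.27, and r without it was not computed. Its value on curcumin includes the 430B arrays that stood apart.

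The diet by enema interaction asked whether the TNBS difference itself differed between diets. With limma 0 of 160 members passed, where 0.0332% of all probe sets did, and at an unadjusted p under 0.05, 3 were above and 3 below 0, against 6.67% and 6.86%. Of the 87 genes 37 (42.5%) were above 0, against 49.9% of all genes, with a median of -0.07 that turned to 0.01 under quantile normalization and to 0.06 with a term for the array sets. The interval lay inside a 2-fold difference for 77 genes, fewer than in the single-factor comparisons. Atp5k by its second brightest probe set (-1.27, limma adjusted p = 0.283) and Atp5md (0.80, adjusted p = 0.344) had the largest values with an unadjusted p under 0.05 on 430A. On 430B a probe set of Ndufb2 was at 0.92 and one of Ndufc2 at -0.81 (limma adjusted p of 0.248 and 0.182), both chosen after their values were seen. Without the 430B arrays that stood apart these were 1.05 and -0.40.

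Genes around the complexes gave little more. Of 34 tested assembly factors 0 passed in any comparison, with medians between -0.06 and 0.13. In the single-factor comparisons the 3 smallest p belonged to Cox10, Atpaf2 and Nubpl. Cox10, which acts in making the haem of complex IV, differed by -0.45 between diets after TNBS (limma adjusted p = 0.0839), and Nubpl, an iron-sulphur carrier for complex I, by -0.61 (adjusted p = 0.0903). Both were measured on 430B. Atpaf2, a complex V assembly factor, differed by 0.78 for TNBS on curcumin (adjusted p = 1). Of 17 genes of the tricarboxylic acid cycle and pyruvate dehydrogenase 0 passed. Sucla2, a subunit of succinyl-CoA ligase, differed by -0.34 after TNBS on the standard diet and by 0.33 between diets after TNBS (adjusted p of 0.285 and 0.283), and Idh3b, of isocitrate dehydrogenase, by -0.28 and 0.36 (adjusted p of 0.421 and 0.251). Of 15 regulators of mitochondrial gene expression 0 passed by the probe set that stands for the gene, but a 430B probe set of Esrra, the receptor ERR alpha, was lower on curcumin after TNBS (-0.77, limma adjusted p = 0.0398). The 430A probe set of Esrra differed by 0.01, and without the 430B arrays that stood apart the call was lost (-0.71, adjusted p = 0.643). Twnk, the mitochondrial DNA helicase, differed by -0.70 for TNBS on curcumin (limma adjusted p = 0.108), and Pprc1, a coactivator related to PGC-1 alpha, by -0.54 for curcumin with control enema (adjusted p = 0.998). Nrf1, which encodes NRF-1, and Ppargc1a, which encodes PGC-1 alpha, differed by -0.32 and -0.41 for TNBS on the standard diet (adjusted p of 0.603 and 0.519), and were chosen after their values were seen.

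Of 76 mitochondrial ribosomal protein genes 1 passed by the probe set that stands for the gene. This was Mrps10, which fell by 1.04 between diets after TNBS (limma adjusted p = 0.0429). It was measured on 430B, and without the arrays that stood apart its difference was -0.52 with an adjusted p of 0.907. A 430B probe set of Mrpl44 also passed (-1.67, limma adjusted p = 0.0251), while the gene's 430A probe set differed by 0.05, and without the arrays that stood apart the 430B value was -1.06 with an adjusted p of 0.686. Of 7 tested mitochondrial carriers, porins and uncoupling proteins and of 15 glycolytic genes 0 passed in any comparison. Slc2a1, the glucose transporter GLUT1, was the glycolytic gene with the smallest p, at 0.64 between diets after TNBS (adjusted p = 0.223).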

How the data were processed

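The deposited values are Affymetrix signals on a linear intensity scale, made by the authors with GCOS (version not given in the sources used here) per the submitters' processing notes. Precision is limited by the number of arrays, 12 of each type. Probe sets were named from the platform annotation, and 10 probe sets annotated to several genes were left out of the members. The log2 of signal plus a pseudocount of 16 was used, and probe sets above the 40th percentile of mean log2 signal of their array type were tested. Each type was fitted alone in limma 3.58.1 (R 4.3.3) as 4 group means on 12 arrays (lmFit, eBayes with trend, 8 residual degrees of freedom). P-values are two-sided with Benjamini-Hochberg adjustment over all tested probe sets of a type, called at 0.05, and intervals are 95% from the same fit. Differences are on the log2(signal + 16) scale, which understates those of dim genes. The fit was tested on simulated data. Array sets and outlying 430B arrays were taken from principal components of probe sets that are no members. The array sets follow the sign of the first 430A component, a cut that splits the samples in any data. On 430B an array over 5 median absolute deviations from the median on the first component is said to stand apart.

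Named were members past the threshold, the 2 genes with the largest rise and the 2 with the largest fall in each single-factor comparison, and a fixed list of subunit isoforms and core subunits. From the other lists, members past the threshold or with the smallest p were named. Other genes are said to be chosen after their values were seen. Members, lists and tests were chosen with earlier results of these data known. Alternatives were other pseudocounts, filters, scalings, array weights, a term for the array sets, no outlying arrays, fewer arrays in the fit and each sample left out in turn. Detection calls were not used here.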

Additional observations from a re-analysis of the deposited data

How the results depend on the processing

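No paired analysis was possible because the labels number the samples 1 to 12 through the groups. With TNBS on the curcumin diet, the 1 member that passed was lost with a pseudocount of 1, no filter or a filter at the 60th percentile. It was also lost with no variance trend, only the 6 arrays compared, and without the outlying 430B arrays (0 members in each of these settings). A pseudocount of 64 gave 2 members, 1.24% of the 161 tested, where 0.295% of all probe sets passed. Array weights gave 1, 5, 13 and 5 members for TNBS on the standard diet, TNBS on curcumin, curcumin with TNBS and the interaction, which is 0.625%, 3.12%, 8.12% and 3.12% of members where 0.827%, 11%, 17.6% and 9.34% of all probe sets passed. They put a weight of 6.99 on replicate 2 of curcumin-TNBS on 430A, where the other arrays had 0.486 to 1.71. Unadjusted, 6, 5, 3, 14 and 6 members had p under 0.05. The interaction median was 0.014 under quantile normalization, -0.18 with array weights, 0.056 with a term for the array sets, with or without the outlying arrays, and 0.00814 when all probe sets of a gene were averaged; beyond the construction of each setting, the cause was not tested.

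Leaving out each sample in turn gave medians of -0.053 to 0.067 for TNBS on the standard diet, -0.10 to 0.02 for TNBS on curcumin, 0.06 to 0.17 for curcumin with control enema, -0.031 to 0.16 for curcumin with TNBS and -0.13 to 0.020 for the interaction. Genes above 0 ran from 27 to 60, 26 to 46, 63 to 70, 39 to 69 and 29 to 45. Members that passed ran from 0 to 0, 0 to 6, 0 to 0, 0 to 2 and 0 to 1, and the 6, 2 and 1 came without curcumin-TNBS replicate 1, where 10.1%, 9.67% and 5.17% of all probe sets passed. Without curcumin-control replicate 1 the member that passed was Cox8c, not Ndufaf6. The counts of genes above 0 under these settings were added after the data were seen. Of the single-gene values, 3263 kept their call or, where uncalled, stayed within a standard error, and 60 uncalled values moved by more. A call was lost by 16 and gained by 4. Direction was compared only where there was a call, and 0 of those reversed, so small uncalled values may have changed sign. Under quantile normalization and median centring the median difference of the other probe sets tested stayed within 0.09 of 0.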

Other observations

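Subunits encoded in the mitochondrial genome were outside the rule, and 1 of them, ND5 of complex I, could be read on 430A. Its signal was 17630, 11816 and 14549 in standard-control, 16867, 13795 and 14564 in standard-TNBS, 17210, 9194 and 15940 in curcumin-control and 16227, 14850 and 14866 in curcumin-TNBS. The groups overlapped throughout. The differences were 0.05 for TNBS on the standard diet, 0.17 for TNBS on curcumin, -0.09 for curcumin with control enema and 0.03 for curcumin with TNBS, each with a standard error of 0.21 and a limma adjusted p of 0.969 or more.

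Ndufc2, an accessory subunit of complex I, was read differently by the array types. Its 430B probe set, chosen after its values were seen, lay between 6685 and 13603 over the 12 samples. The lowest was curcumin-TNBS replicate 3 and the highest curcumin-control replicate 3. For TNBS on curcumin the probe set differed by -0.58 (limma adjusted p = 0.103). The brightest 430A probe set of the gene differed by -0.04. Without the 430B arrays that stood apart the 430B difference was -0.17.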
